A study of Mus musculus with 9 samples.

Results

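The transcription factor genes that give heart muscle its identity were followed here across 3 groups of mouse hearts. They are Nkx2-5, Gata4, Gata6, Tbx5, Tbx20, Hand2, Mef2a, Mef2c, Mef2d and Srf. Rows carrying these gene names were taken from the deposited read and TPM tables and summed by gene, which gave 10 of the 41710 gene names in the tables. All 10 passed the expression filter. The hearts came from male mice of the FVB/N strain at 8 months of age, with n = 3 libraries per group, each labelled as a separate heart. The groups were RKIP-transgenic mice (Tg-RKIP), mice labelled GRK2-transgenic (Tg-GRK2) and non-transgenic FVB/N controls. In Tg-RKIP mice the alpha-MHC promoter drives RKIP in the myocardium, and this promoter is that of Myh6, itself a target of several of these factors. The promoter of the GRK2 transgene is not given in the sources used here.

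Heart muscle genes are switched on by a small set of factors that bind each other as well as DNA. Nkx2-5 is the homeobox factor of the early heart field, Gata4 and Gata6 are zinc finger factors, Tbx5 and Tbx20 are T-box factors, and Hand2 is a basic helix-loop-helix factor. The MADS-box factors Mef2a, Mef2c, Mef2d and Srf regulate contractile and growth-response genes together with cofactors such as myocardin and class IIa histone deacetylases. All remain expressed in the adult heart, though not in cardiomyocytes alone.

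Libraries held 25458108 to 33447654 reads on transcripts. Pebp1, which encodes RKIP, had 15967 to 16371 TPM in Tg-RKIP and 321 to 330 TPM in FVB/N hearts, whereas Grk2 had 24.9 to 30.5 TPM in the hearts labelled Tg-GRK2 and 25.9 to 27.9 TPM in FVB/N. Genes of the mitochondrial genome took 11.7% ± 0.156 of reads in Tg-RKIP, 22.6% ± 0.299 in Tg-GRK2 and 23.1% ± 0.158 in FVB/N hearts (SD, n = 3 each). Both a length-based and a library-based scale are therefore used below. TPM divides reads by transcript length within each library, so it compares levels between genes but moves when abundant transcripts change. The TMM-scaled CPM, a read count relative to library size (TMM CPM), sets most genes as unchanged and carries the tests, and on it the median log2 fold change of all genes tested was 0.0085 for Tg-RKIP against FVB/N. Scaling each library to its total alone (size scaling) put that median at 0.38. A gene that fell by less than this on the TMM scale can therefore point upward with size scaling or in TPM.

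In the Tg-RKIP hearts, Mef2a fell to 0.499 of its FVB/N level, Mef2c, Mef2d, Gata6 and Gata4 fell by smaller steps, and Nkx2-5 rose by 0.46 on the log2 scale. Past an adjusted p of 0.05 in the quasi-likelihood test of edgeR, 2 of the 10 factors were higher and 6 lower. Of all 15504 genes tested, 36.8% were higher and 37.1% lower in this comparison, 73.9% in all, so a call for 8 of 10 factors is close to the share in the whole transcriptome. The median log2 fold change of the 10 was -0.15. With size scaling 6 factors were higher and 1 lower, against 62.6% and 17.1% of all genes (79.7% called). On the TMM scale 2 factors were higher and 6 lower without overlap between groups, against 38.0% and 37.7% of all genes (75.7% apart).

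In the hearts labelled Tg-GRK2 the changes were small, with 5 factors higher and 2 lower than in FVB/N, where 12.2% of all genes were called in each direction and 24.5% in all. The largest was the fall of Hand2 by 0.30. Size scaling gave the same counts, against 13.5% and 10.7% of all genes (24.2% called), and so did the groups without overlap on the TMM scale, against 18.5% and 18.6% (37.1% apart). The Tg-RKIP hearts differed from the hearts labelled Tg-GRK2 in 9 of the 10 factors, 3 higher and 6 lower, where 37.9% of all genes were higher and 36.6% lower (74.5% called). Size scaling gave 6 and 2 there, against 62.0% and 18.4% (80.3% called), and on the TMM scale 3 were higher and 6 lower without overlap, against 39.1% and 37.4% (76.4% apart). Each pair of these 3 comparisons shares a group of libraries. In a test against a change of 1.5-fold (glmTreat), Mef2a was the only factor to pass, in both comparisons that involve Tg-RKIP. The share of all genes that passed this test was not counted.

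**Figure D1:**
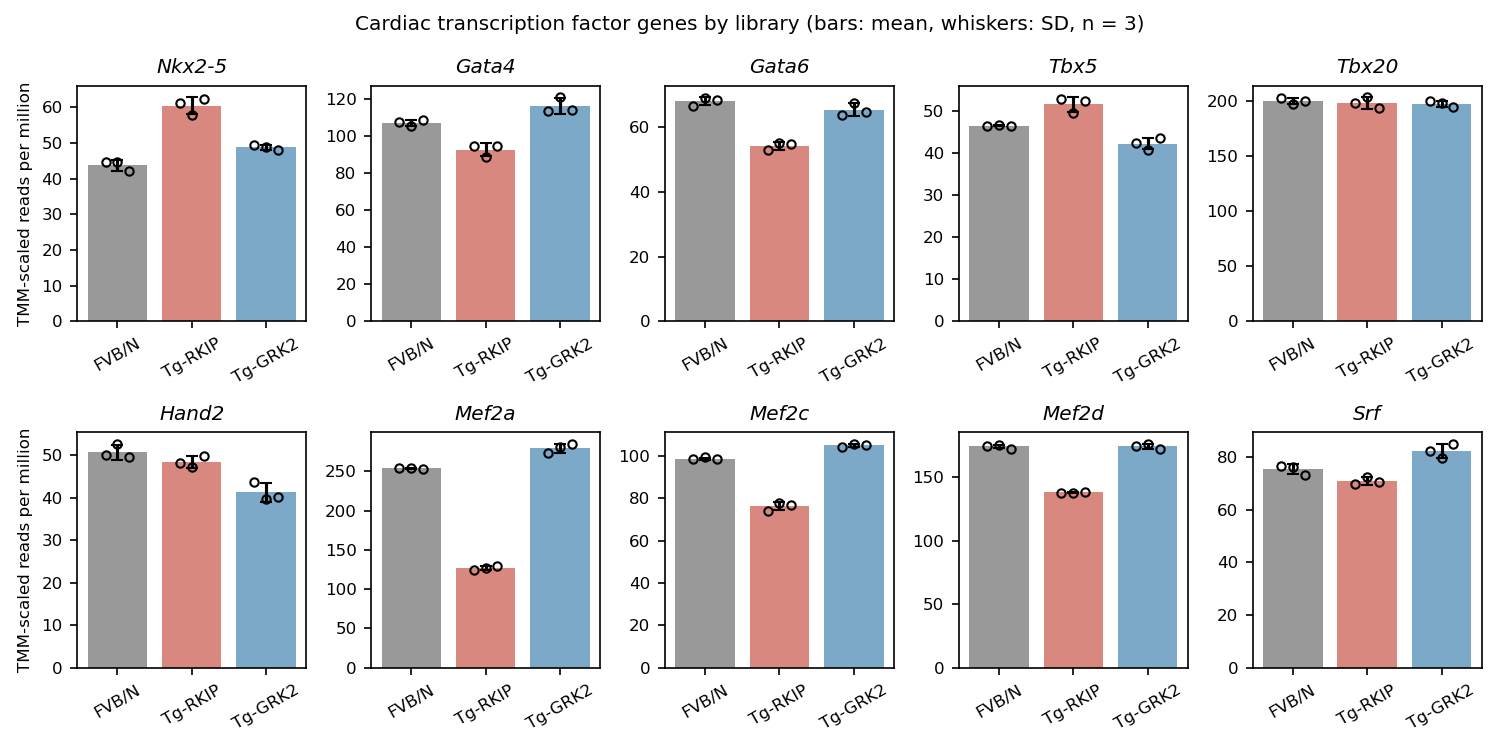
TMM CPM of each factor gene (vertical axis, from 0) in FVB/N, Tg-RKIP and Tg-GRK2 hearts. Bars give the mean, whiskers the SD and circles the 3 libraries of each group. The Tg-RKIP circles of Mef2a lie at 125 to 129, below the 253 to 254 of the FVB/N libraries, while those of Nkx2-5 lie above FVB/N.

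Nkx2-5 (chromosome 17 from 27057638 to 27063983, minus strand, GRCm39 coordinates as deposited) had 44.6, 44.5 and 42.0 TMM CPM in the FVB/N libraries 1 to 3. The Tg-RKIP libraries had 61.2, 57.9 and 62.4, and those labelled Tg-GRK2 had 49.3, 48.9 and 48.0. All Tg-RKIP libraries were above all others, and the Tg-GRK2 libraries lay between them and FVB/N without overlap. The log2 fold change of Nkx2-5 was 0.46 in Tg-RKIP (standard error 0.036, adjusted p = 1.60e-10, edgeR) and 0.16 in Tg-GRK2 (standard error 0.038, adjusted p = 0.00437, edgeR). Between Tg-RKIP and the libraries labelled Tg-GRK2 it was 0.31 (adjusted p = 7.27e-08, edgeR). With size scaling the rise in Tg-RKIP was 0.84, so Nkx2-5 was higher on both scalings. Of the genes tested, 23.7% had a log2 fold change at or above that of Nkx2-5 in Tg-RKIP.

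Gata4 (chromosome 14 from 63436371 to 63509141, minus strand), a zinc finger factor that acts with Nkx2-5 and Tbx5, had 107, 105 and 109 TMM CPM in FVB/N. It had 94.6, 89.0 and 94.7 in Tg-RKIP and 113, 121 and 114 in Tg-GRK2. The Tg-RKIP libraries were lowest and the Tg-GRK2 libraries highest, with no overlap. Gata4 reads fell by 0.21 on the log2 scale in Tg-RKIP (standard error 0.030, adjusted p = 2.38e-06, edgeR) and rose by 0.12 in Tg-GRK2 (standard error 0.030, adjusted p = 0.00632, edgeR). The fall turned into a rise of 0.17 with size scaling, and in TPM the Tg-RKIP libraries, at 60.9 to 64.2, lay above the 49.9 to 52.4 of FVB/N. The log2 ratio of mean TPM was 0.30, more than with size scaling. TPM also divides by transcript length, and a shorter Gata4 transcript took a larger share of reads in Tg-RKIP, as given below. The rise in Tg-GRK2 was no longer called without Tg-GRK2 replicate 2 (adjusted p = 0.0501, edgeR).

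Gata6 (chromosome 18 from 11052064 to 11085635, plus strand), the paralog of Gata4 in the heart, had 66.5, 68.9 and 68.5 TMM CPM in FVB/N. The Tg-RKIP libraries had 52.9, 54.9 and 54.9, and the Tg-GRK2 libraries 63.8, 67.6 and 64.8. Tg-RKIP lay below both other groups, which overlapped each other. The log2 fold change was -0.33 in Tg-RKIP (standard error 0.031, adjusted p = 5.39e-09, edgeR) and -0.057 in Tg-GRK2 (standard error 0.031, adjusted p = 0.212, edgeR). With size scaling the Tg-RKIP value was 0.050 and was not called. An antisense gene, Gata6os, shares 153 exonic bases with Gata6 and had 140 to 188 reads in FVB/N and 87 to 125 in Tg-RKIP libraries, and the strand setting of the counting is not given in the sources used here.

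Tbx5 (chromosome 5 from 119970733 to 120023284, plus strand), the T-box factor of Holt-Oram syndrome, had 46.5, 46.6 and 46.5 TMM CPM in FVB/N, 52.7, 49.6 and 52.4 in Tg-RKIP and 42.4, 40.8 and 43.6 in Tg-GRK2. The 3 groups did not overlap, with Tg-RKIP highest and Tg-GRK2 lowest. Its log2 fold change was 0.15 in Tg-RKIP (standard error 0.035, adjusted p = 0.000904, edgeR) and -0.14 in Tg-GRK2 (standard error 0.037, adjusted p = 0.00908, edgeR), and against the libraries labelled Tg-GRK2 it was 0.28 in Tg-RKIP (adjusted p = 3.00e-07, edgeR). Size scaling raised the Tg-RKIP value to 0.52. The fall in Tg-GRK2 was not called without Tg-GRK2 replicate 2 (adjusted p = 0.059, edgeR).

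Tbx20 (chromosome 9 from 24629434 to 24685599, minus strand), a T-box factor of adult cardiomyocytes, was the steadiest of the 10 on the TMM scale. It had 198 to 202 TMM CPM in FVB/N, 193 to 203 in Tg-RKIP and 194 to 199.9 in Tg-GRK2 libraries, and all groups overlapped. The log2 fold change was -0.012 in Tg-RKIP (standard error 0.022, adjusted p = 0.622, edgeR) and -0.018 in Tg-GRK2 (standard error 0.022, adjusted p = 0.627, edgeR). In TPM, by contrast, Tg-RKIP libraries had 39.0 to 41.4 and FVB/N libraries 30.2 to 31.0, and the size-scaled log2 fold change was 0.36.

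Hand2 (chromosome 8 from 57774018 to 57777668, plus strand), a basic helix-loop-helix factor known for right ventricular development, had 49.9, 52.7 and 49.4 TMM CPM in FVB/N and 48.1, 47.1 and 49.8 in Tg-RKIP. These groups overlapped. The libraries labelled Tg-GRK2 had 43.7, 39.8 and 40.2 and lay below all others. Hand2 fell by 0.30 on the log2 scale in Tg-GRK2 (standard error 0.041, adjusted p = 9.54e-06, edgeR), whereas its value of -0.071 in Tg-RKIP was not called (standard error 0.039, adjusted p = 0.105, edgeR). Hand2 was higher by 0.23 in Tg-RKIP than in the libraries labelled Tg-GRK2 (adjusted p = 2.60e-05, edgeR). The antisense gene Hand2os1, which shares 400 exonic bases with Hand2, had 1014 to 1216 reads in Tg-GRK2 and 1202 to 1422 in FVB/N libraries, of which its transcripts that overlap Hand2 held 572 over all 9 libraries. Without knowledge of the strand setting, reads in the shared bases cannot be assigned to either gene.

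**Figure D2:**
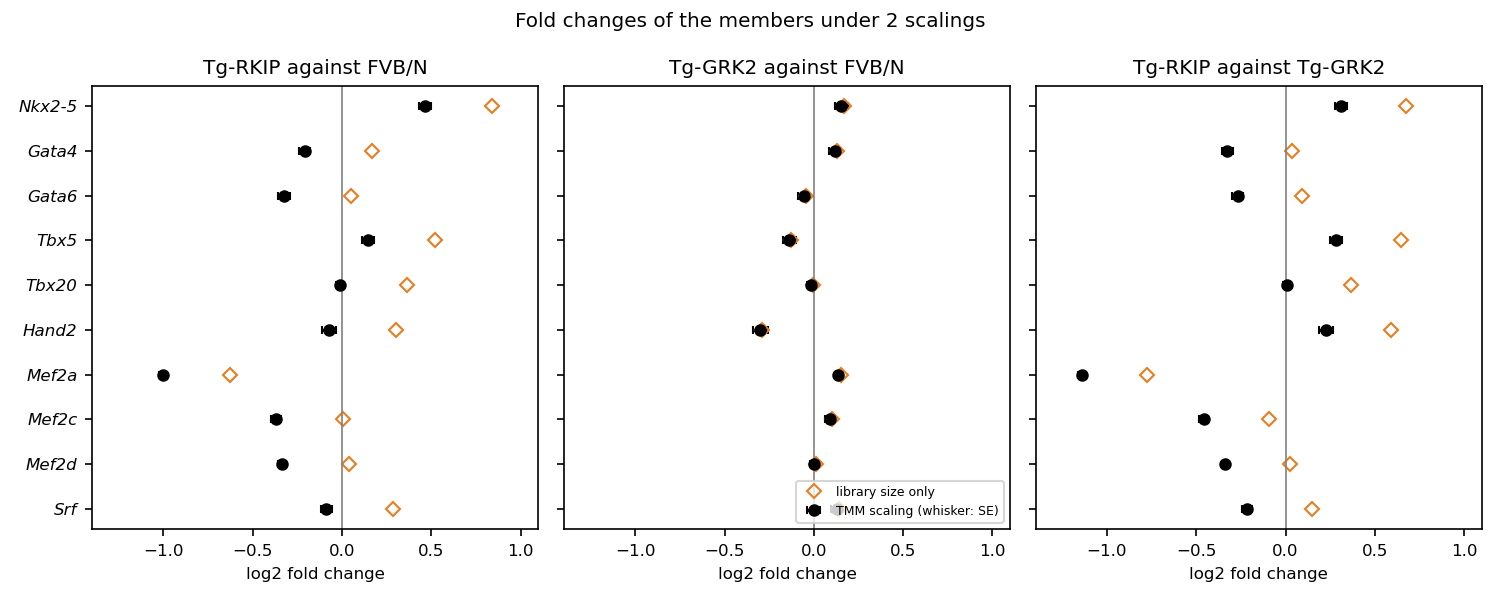
Log2 fold change (horizontal axis) of each factor gene in the 3 comparisons. Black points give the fit with TMM scaling, with the standard error as whiskers, and open orange diamonds the fit with size scaling. In both comparisons with Tg-RKIP the diamonds lie to the right of the points, and Mef2a is the only gene far to the left of 0 on both.

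Mef2a (chromosome 7 from 66880911 to 67022606, minus strand) is the main MEF2 gene of postnatal heart muscle. It had 254, 254 and 253 TMM CPM in FVB/N and 125, 126 and 129 in Tg-RKIP libraries. The Tg-GRK2 libraries had 273, 280.2 and 284. No groups overlapped, and the Tg-RKIP level was 0.499-fold that of FVB/N. The log2 fold change was -1.003 in Tg-RKIP (standard error 0.021, adjusted p = 1.40e-20, edgeR), and only 6.15% of the genes tested were as low or lower. Every scaling tried left Mef2a lower in Tg-RKIP, with -0.63 under size scaling. In Tg-GRK2 it was 0.14 higher (standard error 0.021, adjusted p = 2.75e-05, edgeR). On the opposite strand, Lysmd4 shares 2114 exonic bases with Mef2a, and its transcripts that overlap Mef2a held 12 reads over all 9 libraries. As the strand setting is not given, reads in the shared bases cannot be assigned to either gene.

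Mef2c (chromosome 13 from 83652153 to 83815199, plus strand), required for early heart looping, had 98.5, 99.4 and 98.4 TMM CPM in FVB/N, 74.1, 78.0 and 77.1 in Tg-RKIP and 104, 106 and 105 in Tg-GRK2. The order Tg-GRK2, FVB/N, Tg-RKIP held without overlap. The log2 fold change was -0.37 in Tg-RKIP (standard error 0.026, adjusted p = 2.67e-11, edgeR) and 0.089 in Tg-GRK2 (standard error 0.026, adjusted p = 0.0141, edgeR). With size scaling the Tg-RKIP value was 0.0053 and was not called.

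Mef2d (chromosome 3 from 88049679 to 88079393, plus strand), a mediator of stress-dependent remodelling, had 175, 176 and 173 TMM CPM in FVB/N and 138, 138 and 138 in Tg-RKIP. The Tg-GRK2 libraries, with 175, 176 and 172, overlapped FVB/N. Its log2 fold change was -0.34 in Tg-RKIP (standard error 0.021, adjusted p = 2.78e-12, edgeR) and 0.00091 in Tg-GRK2 (standard error 0.021, adjusted p = 0.985, edgeR). Size scaling gave 0.039 in Tg-RKIP, not called. On the opposite strand, 1700113A16Rik shares 531 exonic bases with Mef2d, and its transcripts that overlap Mef2d held 138 reads over all 9 libraries. The same limit of the strand setting holds for these bases.

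Srf (chromosome 17 from 46859255 to 46867101, minus strand) encodes serum response factor, which binds CArG boxes and, with myocardin, drives muscle genes. It had 76.6, 76.4 and 73.3 TMM CPM in FVB/N, 69.9, 72.5 and 70.4 in Tg-RKIP and 82.5, 79.6 and 85.0 in Tg-GRK2. The groups did not overlap, although Tg-RKIP and FVB/N lay close. The log2 fold change of Srf was -0.088 in Tg-RKIP (standard error 0.030, adjusted p = 0.0130, edgeR) and 0.13 in Tg-GRK2 (standard error 0.031, adjusted p = 0.00355, edgeR). The Tg-RKIP call was lost when at least 10 reads were required in all 9 libraries (adjusted p = 0.0512, edgeR), and with size scaling Srf was higher by 0.29.

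The Srf promoter is shown because Srf is both a member and the factor that binds the CArG box. The 250 bases before the start of each gene's first base were taken from RefSeq (GRCm38.p6) for the 7 members with an entry, 9 promoters in all. A CArG box on either strand was found in 1 of these 9, that of Srf, and in 1.47% of 32851 promoters of the same length. The stretch below lies at chr17:46556195-46556264 on the minus strand, before the annotated first exon, and capitals mark its 2 CArG boxes, 82 and 62 bases before the RefSeq start.
Srf promoter: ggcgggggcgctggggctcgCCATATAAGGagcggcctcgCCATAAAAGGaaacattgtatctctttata
The match is a description of these letters. A MEF2 site was found in none of the 9 promoters and in 2.92% of all. The core AAGTG, part of the NK2 site, was in 5 of the 9 and in 40.7% of all, and GATAAG was in none of the 9 and in 6.55% of all. Several of the 9 promoters belong to Mef2c, so counts of promoters are not counts of genes. Each Mef2c promoter held AAGTG, and the others with it were those of Hand2 and Srf. AGGTGT, a T-box core, was in 1 of the 9 and in 11.8% of all, and the E-box CATCTG was in 2 of the 9 and in 14.4% of all. Both strands were read for each motif, and each was counted on its own, so matches of different motifs may share bases.

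Per transcript length, Mef2a was the most abundant of the 10 in FVB/N hearts, with 65.8 ± 0.909 TPM, followed by Mef2d with 54.0 ± 0.783, Gata4 with 51.2 ± 1.28 and Srf with 49.7 ± 5.34 (SD, n = 3 each). Gata4 and Srf overlapped. Nkx2-5 followed with 39.3 ± 1.48 TPM, then Tbx20, Hand2 and Gata6 between 29.1 and 30.5, Mef2c with 25.1 ± 1.36 and Tbx5, lowest, with 17.2 ± 0.373. Neighbours among Tbx20, Hand2 and Gata6 overlapped as well. The Srf total includes transcripts of 376 to 637 bases, in which few reads give a high TPM. Its main transcript ENSMUST00000015749 alone had 37.3, 38.5 and 36.6 TPM in FVB/N libraries 1 to 3. The main Nkx2-5 transcript ENSMUST00000015723 had 39.7, 39.7 and 37.4, so the place of Srf above Nkx2-5 rests on the short transcripts. In Tg-RKIP hearts the order changed, with Nkx2-5 first at 72.6 ± 2.77 TPM and Mef2a in the fifth place at 42.2 ± 0.323 TPM. Mef2c, at 23.9 ± 0.267 TPM, was last there and overlapped Tbx5. In hearts labelled Tg-GRK2 the first 6 places were those of FVB/N, and Hand2 had moved to the ninth place with 24.9 ± 1.22 TPM. In TPM, 7 factors were higher and 1 lower without overlap in Tg-RKIP against FVB/N, where 64.3% of all genes tested were higher and 14.4% lower (78.8% apart). Tg-GRK2 against FVB/N gave 5 and 1, against 22.9% and 10.8% (33.8% apart), and Tg-RKIP against Tg-GRK2 gave 7 and 3, against 61.6% and 16.9% (78.5% apart). Each such difference has p = 0.1 in the exact two-sided permutation test, the smallest that 3 libraries against 3 allow.

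Shares within a family do not depend on the scaling of a library. Mef2a made up 46.4%, 45.5% and 44.4% of the summed TPM of Mef2a, Mef2c and Mef2d in FVB/N libraries, and 34.9%, 35.1% and 35.1% in Tg-RKIP libraries. The Tg-GRK2 libraries had 46.8%, 46.9% and 47.4%. The Mef2a share fell by 10.4 percentage points in Tg-RKIP hearts, and Mef2d became the largest share, at 45.2% ± 0.285 against 37.2% ± 0.238 in FVB/N (SD, n = 3 each). Mef2c took 19.8% ± 0.144 in Tg-RKIP and 17.3% ± 0.790 in FVB/N. Tg-RKIP and FVB/N were apart in each of the 3 shares (exact permutation test, two-sided p = 0.1 each). Gata4 took 66.9% ± 0.996 of the summed Gata4 and Gata6 TPM in Tg-RKIP, 65.2% ± 0.187 in Tg-GRK2 and 63.8% ± 0.845 in FVB/N, without overlap between groups (exact permutation test, p = 0.1). This share depends on how Gata4 reads were divided among transcripts of unlike length, such as 2407 and 3374 bases, which is not given. On the TMM scale, Gata4 changed by -0.33 and Gata6 by -0.27 in Tg-RKIP against Tg-GRK2. The higher Gata4 share in Tg-RKIP than in Tg-GRK2 was therefore not seen in reads. Against FVB/N, Gata4 changed by -0.21 and Gata6 by -0.33 in Tg-RKIP, the same order as the TPM share. Tbx5 took 37.9% ± 1.49 of the summed Tbx5 and Tbx20 TPM in Tg-RKIP and 36.0% ± 0.394 in FVB/N, and these overlapped (exact permutation test, p = 0.2). Over the 15 comparisons of 5 shares no p can fall below 0.1, so none passes a threshold of 0.05 before or after adjustment.

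**Figure D3:**
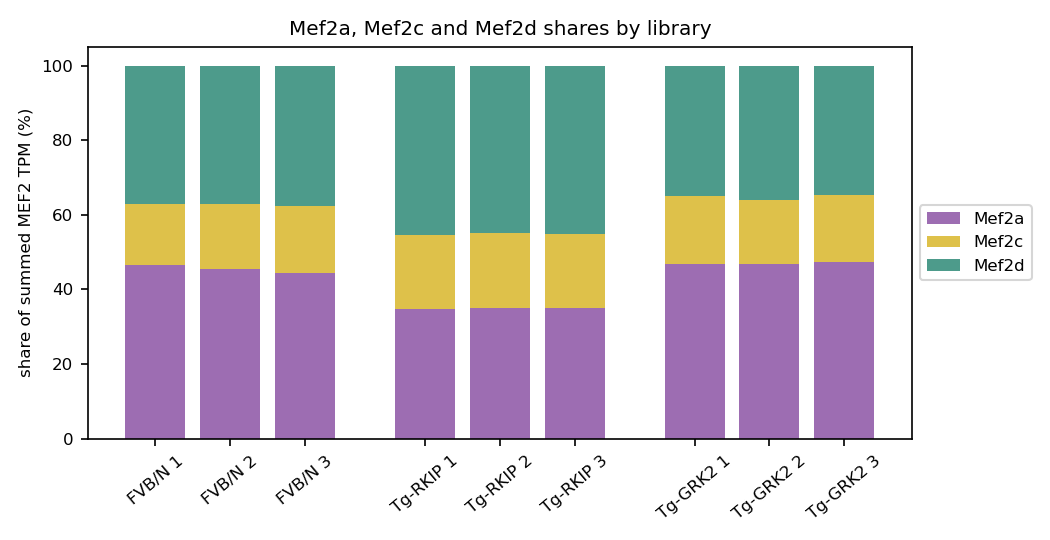
Share of Mef2a, Mef2c and Mef2d (vertical axis, percent of their summed TPM) in each of the 9 libraries, 1 stacked bar per library. The Mef2a share is 34.9% to 35.1% in the Tg-RKIP bars and at least 44.4% in all others, and the Mef2d share is largest in Tg-RKIP.

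The transcripts of Gata4 changed more than the gene total did. Gata4 has 6 listed transcripts. Of these, ENSMUST00000118022 and ENSMUST00000067417 encode the full-length factor of 441 and 442 codons, and ENSMUST00000121312 starts at an exon of its own inside the gene (first exon chr14:63450814-63451056 in GRCm39) and encodes 236 codons. Both reading frames end alike, and the short one begins at codon 206 of the full-length frame, so it lacks the N-terminal part, where the activation domains of Gata4 are known to lie. The first 60 coding bases of each, from GENCODE M21 (GRCm38), show where they begin, with the start codon in capitals. The full-length start lies at chr14:63241089-63241148 and the short start at chr14:63204694-63204753, both on the minus strand.
Gata4 full length: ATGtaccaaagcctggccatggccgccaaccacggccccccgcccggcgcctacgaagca
Gata4 short: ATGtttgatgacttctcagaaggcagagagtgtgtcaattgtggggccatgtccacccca

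The short Gata4 transcript held 938, 955 and 865 reads in FVB/N, 1633, 2058 and 1686 in Tg-RKIP and 502, 527 and 656 in Tg-GRK2 libraries. The full-length ENSMUST00000118022 held 1428, 1772 and 1411 reads in FVB/N, 987, 1156 and 1089 in Tg-RKIP and 2065, 1786 and 2036 in Tg-GRK2. In these unscaled reads the short form was high in Tg-RKIP and low in Tg-GRK2, and ENSMUST00000118022 the reverse. Of all Gata4 reads, the short transcript took 57.8% ± 1.72 in Tg-RKIP, 33.2% ± 1.53 in FVB/N and 17.4% ± 1.40 in Tg-GRK2 hearts (SD, n = 3 each), with no overlap between any groups. The full-length transcripts together took 41.8% ± 1.68 in Tg-RKIP, 65.8% ± 1.78 in FVB/N and 81.6% ± 1.60 in Tg-GRK2. On the TMM scale the short transcript was 1.51-fold the FVB/N mean in Tg-RKIP and 0.569-fold in Tg-GRK2, and the full-length transcripts were 0.550-fold and 1.35-fold.

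In the test of transcript usage in edgeR (diffSpliceDGE), which compares each transcript with the other transcripts of its gene, Gata4 was called in all 3 comparisons. The adjusted p was 0.00336 for Tg-RKIP against FVB/N, 0.00995 for Tg-GRK2 against FVB/N and 6.52e-08 for Tg-RKIP against Tg-GRK2, from edgeR. In Tg-GRK2 against FVB/N only the short transcript was called on its own (adjusted p = 0.00779, edgeR). Neither full-length transcript was called there, with an adjusted p of 0.286 for ENSMUST00000067417 in edgeR. The share of the 8858 genes tested that were called was 17.1%, 1.59% and 21.2% in these comparisons. The call in Tg-GRK2 against FVB/N was lost without FVB/N replicate 1 (adjusted p = 0.0820, edgeR) and without Tg-GRK2 replicate 1 (adjusted p = 0.0604, edgeR), whereas both calls that involve Tg-RKIP held whichever library was dropped. The short and full-length transcripts share 2164 bases, with 243 bases only in the short and 1210 only in the full-length one, and how the authors divided single reads of 50 bases among them is not given in the sources used here.

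**Figure D4:**
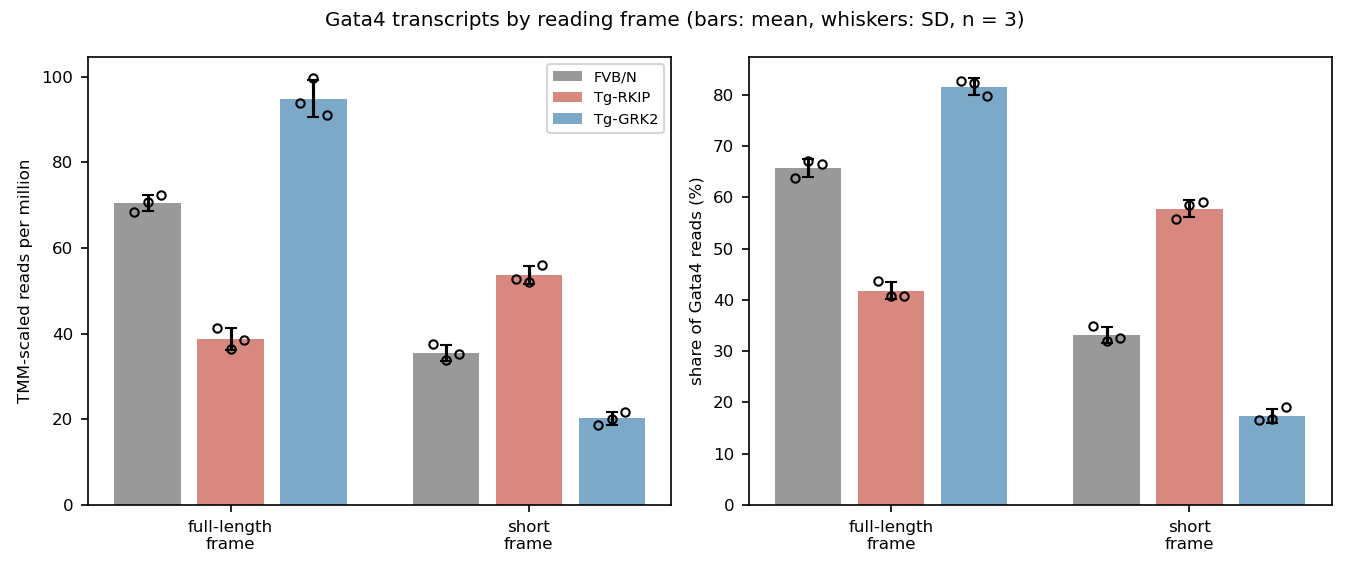
Gata4 transcripts with the full-length and the short reading frame in FVB/N, Tg-RKIP and Tg-GRK2 hearts, as TMM CPM (left) and as percent of Gata4 reads (right). Bars give the mean, whiskers the SD and circles the 3 libraries. The short frame takes 57.8% in Tg-RKIP, 33.2% in FVB/N and 17.4% in Tg-GRK2.

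Usage was also called for Mef2a (adjusted p = 7.66e-06, edgeR) and Mef2c (adjusted p = 3.71e-05, edgeR) in Tg-RKIP against FVB/N. With Gata4, 3 of the 7 factors with several tested transcripts were called, where 17.1% of genes were. In Mef2a and in Mef2c the transcript called on its own had 0 reads in every Tg-RKIP library. Each of these transcripts passed the filter only through the other groups, so 3 of 7 is no evidence of a larger share among the factors. Mef2c transcript ENSMUST00000163888 held 1, 536 and 296 reads in FVB/N and 228, 227 and 53 in Tg-GRK2, and differs from the listed ENSMUST00000005722 by a coding exon of 60 bases. Its level thus varied widely between libraries of a group, and FVB/N library 1 was itself at 1 read. How reads were divided among the transcripts of Mef2c and of Mef2a is not given either. A lost transcript and a shift in read assignment therefore cannot be told apart. Mef2a transcript ENSMUST00000076325, named after its values were seen, held 251, 150 and 104 reads in FVB/N and 205, 378 and 357 in Tg-GRK2. Its mean share of Mef2a reads in FVB/N, 2.57% ± 1.21 (SD, n = 3), was at least 33.0-fold higher than the share that 3 reads per Tg-RKIP library allow. It has a coding exon of 138 bases where the main transcript ENSMUST00000156690 has one of 132 bases. It also lacks a coding exon of 24 bases and 2876 bases of the last exon of ENSMUST00000156690, and has 20 noncoding bases of its own. When at least 10 reads were required in all 9 libraries Mef2a was no longer tested for usage. Mef2c then had 2 tested transcripts in place of 6, without ENSMUST00000163888, and was not called (adjusted p = 0.549, edgeR).

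The main transcript carried most reads of each of the other factors. ENSMUST00000156690 held 95.7% ± 0.761 of Mef2a reads in FVB/N and 99.2% ± 0.243 in Tg-RKIP (SD, n = 3 each), so the fall of Mef2a was that of its main transcript. For Nkx2-5 (ENSMUST00000015723), Gata6 (ENSMUST00000047762) and Tbx20 (ENSMUST00000052946) the share was over 99% in every group, and Hand2 has only ENSMUST00000040104. Tbx5 (ENSMUST00000018407) had 97.6% ± 0.827, Srf (ENSMUST00000015749) 94.9% ± 2.11, Mef2d (ENSMUST00000001455) 81.9% ± 0.537 and Mef2c (ENSMUST00000197146) 73.4% ± 7.81 in FVB/N (SD, n = 3 each). Usage of Tbx5, Mef2d, Srf and Nkx2-5 was not called in any comparison, but with at least 10 reads in all 9 libraries Mef2d was called between Tg-RKIP and the libraries labelled Tg-GRK2 (adjusted p = 0.0112, edgeR).

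Among the cofactors that act with these factors, 2 of 18 genes rose and 15 fell in Tg-RKIP against FVB/N, where 36.8% of all genes tested were higher and 37.1% lower. Their median log2 fold change was -0.53 against 0.0085 over all genes. With size scaling, 7 were higher and 11 lower, against 62.6% and 17.1% of all genes. Fhl2, a LIM-domain cofactor of Srf, had the largest fall among them, from 925 ± 16.9 to 277 ± 3.83 TPM (log2 fold change -2.14, adjusted p = 1.03e-26, edgeR). Myocd, which encodes myocardin, the coactivator of Srf, went from 10.9 ± 0.524 to 5.08 ± 0.107 TPM (-1.50, adjusted p = 1.90e-18, edgeR). Zfpm2, the Gata4 partner FOG2, changed by -0.89 and Hdac4, a class IIa deacetylase that represses MEF2, by -0.84, both past the threshold. These 4 were lower on both scalings. In Tg-GRK2 against FVB/N, 6 cofactors were higher and 1 lower (7 and 1 with size scaling), where 12.2% of all genes were called in each direction. In Tg-RKIP against Tg-GRK2, 1 was higher and 15 lower, against 37.9% and 36.6% of all genes, and with size scaling 6 and 11, against 62.0% and 18.4%.

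Of 20 other cardiac transcription factors, 18 were tested, and 8 were higher and 6 lower in Tg-RKIP against FVB/N (14 and 3 with size scaling), with a median of 0.23. Of all genes, 36.8% were higher and 37.1% lower (62.6% and 17.1% with size scaling). Nr2f2, an atrial and venous nuclear receptor, rose from 12.0 ± 0.674 to 28.5 ± 1.05 TPM (log2 fold change 0.99, adjusted p = 2.23e-14, edgeR). Gata5 was at 0.77, from at most 62 reads per library, while Prdm16 changed by -0.82. These 3 passed the threshold and kept their direction with size scaling. In Tg-GRK2 against FVB/N 2 were higher and 4 lower on both scalings, where 12.2% of all genes were called in each direction with TMM. In Tg-RKIP against Tg-GRK2 8 were higher and 5 lower, against 37.9% and 36.6% of all genes, and with size scaling 14 and 3, against 62.0% and 18.4%. Hand1, the paralog of Hand2, had at most 2 reads in any library and was not tested, and neither was Isl1.

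Known cardiac targets moved in both directions. In Tg-RKIP against FVB/N, 8 of 32 target genes rose and 23 fell (13 and 18 with size scaling), with a median of -0.54, where 36.8% of all genes were higher and 37.1% lower (62.6% and 17.1% with size scaling). Skeletal actin Acta1, with a log2 fold change of 2.66, and the natriuretic peptide Nppa, with 1.88, rose, while the pacemaker channel Hcn4, with -2.19, and the calcium release channel Ryr2, with -2.07, fell, all past the threshold in edgeR and in the same direction with size scaling. In Tg-GRK2 against FVB/N 13 targets were higher and 12 lower (13 and 11 with size scaling), with a median of 0.0067, where 12.2% of all genes were called in each direction. In Tg-RKIP against Tg-GRK2 9 were higher and 22 lower, against 37.9% and 36.6% of all genes, and with size scaling 12 and 19, against 62.0% and 18.4%.

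**Figure D5:**
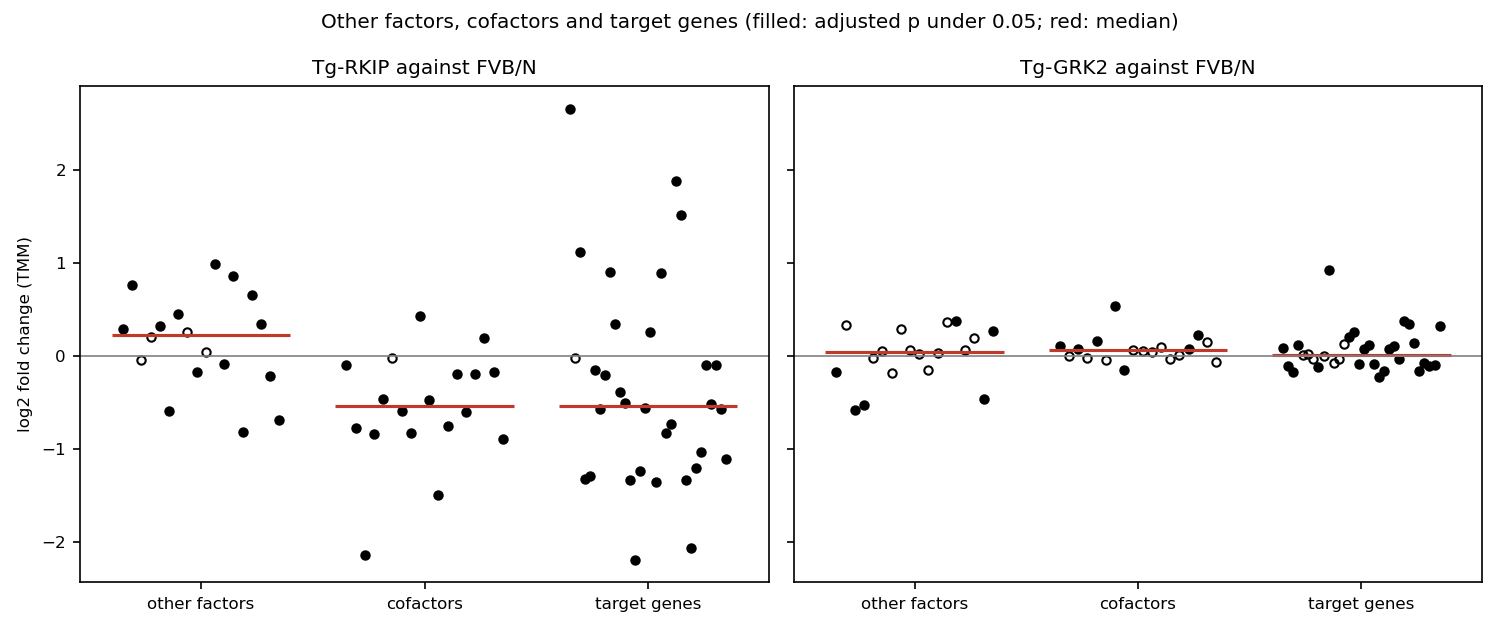
Log2 fold change on the TMM scale (vertical axis) of each tested gene among other cardiac transcription factors, cofactors and target genes, in Tg-RKIP (left) and Tg-GRK2 (right) against FVB/N. Filled circles passed an adjusted p of 0.05, open circles did not, and red lines are medians. Most cofactor circles lie below 0 on the left, with a median of -0.53, and near 0 on the right.

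These are whole hearts, in which fewer cells of a type and less RNA per cell cannot be told apart. Summed cardiomyocyte markers had 37079 to 37578 TMM CPM in Tg-RKIP, 60212 to 61228 in FVB/N and 60670 to 61658 in Tg-GRK2 libraries, with 1 of 8 markers higher and 6 lower in Tg-RKIP (3 and 5 with size scaling). In TPM the same sum was 47743 to 48624 in Tg-RKIP, 49598 to 49903 in FVB/N and 47669 to 49154 in Tg-GRK2, so the size of this difference rests on the scale. Summed fibroblast markers had 4440 to 4456 TMM CPM in Tg-RKIP, 1749 to 1798 in FVB/N and 2121 to 2138 in Tg-GRK2 (2793 to 2816, 984 to 1021 and 1123 to 1136 TPM), and all 8 were higher in Tg-RKIP. All 6 macrophage and all 6 adipocyte markers were also higher in Tg-RKIP, as were 5 of 6 smooth muscle, 4 of 7 endothelial and 1 of 4 atrial markers, with 1, 3 and 3 lower. With size scaling 2 atrial markers were higher and 1 lower, and the smooth muscle, endothelial, fibroblast, macrophage and adipocyte counts were the same. Of all genes, 36.8% were higher and 37.1% lower in this comparison (62.6% and 17.1% with size scaling). In Tg-GRK2 against FVB/N the counts higher and lower were 3 and 5 of 8 for cardiomyocyte, 5 and 0 of 8 for fibroblast, 3 and 0 of 6 for macrophage, 4 and 0 of 6 for adipocyte, 0 and 2 of 6 for smooth muscle, 1 and 3 of 7 for endothelial and 2 and 1 of 4 for atrial markers, where 12.2% of all genes were called in each direction. Airway markers summed to 55.2 to 57.6 TPM in Tg-RKIP and 138 to 146 TPM in Tg-GRK2, with Scgb1a1 and Scgb3a2 at 0 reads in FVB/N and Sftpc at or below 3 reads in all libraries. Skeletal muscle markers summed to at most 8.02 TPM in any library, and of the 3 tested 1 was higher in Tg-RKIP. The part of these markers, and of the mitochondrial reads, in the changes of the 10 factors was not tested.

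Patterns most like those of the factors were read among 36 tested genes of the other-factor and cofactor lists, by Pearson's r of log2 TMM CPM over the 9 libraries, which fall into 3 groups, so r mostly reflects group differences. Mef2a was most like Fhl2 (r = 0.996), Mef2c like Tead1 (r = 0.991), Mef2d like Ep300 (r = 0.998) and Srf like Hdac9 (r = 0.946). Nkx2-5 was most like Mrtfa (r = 0.963), Gata4 like Prdm16 (r = 0.959), Gata6 like Hopx (r = 0.982), Tbx5 like Foxp1 (r = 0.899) and Hand2 like Hey1 (r = 0.947). Tbx20, which changed little, reached only r = 0.412, with Hey2.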

How the data were processed

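Total RNA of 9 hearts was sequenced as single reads of 50 bases, and each library was placed in its group by its label. The authors deposited read counts per transcript, as whole numbers without normalization, and TPM per transcript. The genome build named in the submitters' processing notes is GRCm39. The aligner and the counting program are not given in the sources used here. Counts and TPM were summed by gene name. For genes, edgeR 4.0.16 under R 4.3.3 was used (TMM, filterByExpr, glmQLFit and glmQLFTest, a mean per group for all 9 libraries), with Benjamini-Hochberg adjustment across 15504 genes. Transcript counts were tested with diffSpliceDGE over 8858 genes with 2 or more transcripts passing the filter. TPM levels and shares were compared by exact two-sided permutation tests (scipy). A group without reads was set at a floor of 3 reads per library, which covers counting error only. On data simulated for Tg-RKIP against FVB/N, the gene test was checked to recover known changes.

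The members and lists were chosen with earlier results of these data known. All members were named, with the 4 called genes of largest change in Tg-RKIP for each of the 3 lists of other factors, cofactors and targets, of which 1 is not reported here. The 9 marker lists are given as counts, with the marker genes needed to say which are at 0. Replicate numbers did not pair the libraries, since the correlation of deviations between same-numbered libraries was -0.044 to 0.038. Pairs of libraries within a group differed by 1.26 to 1.52 times sampling noise, and none was treated as a duplicate. The common coefficient of variation between libraries of a group was 2.86% in edgeR. Values this low cannot tell separate hearts from repeats of 1 RNA sample. That the adjusted p-values measure against differences between hearts therefore rests on the labels. Alternatives were other scalings and filters, DESeq2 1.42.0, limma 3.58.1 on log2(TPM + 0.1) and log2(TPM + 1), a replicate block, single transcripts, a tested fold of 1.5, and each library left out. Promoters were taken from RefSeq and coding starts from GENCODE M21, both on GRCm38, and no coordinates were converted between builds.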

Additional observations from a re-analysis of the deposited data

How the results depend on the processing

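For Tg-RKIP against FVB/N, the 8 calls held with each library left out (8 to 8), and Mef2a was lower and Nkx2-5 and Tbx5 higher in every setting tried. Directions of the others rest on the scaling or lie near 0. Depth limits the minor transcripts, such as that of Mef2c with 1 read in a library. Scaling to size only gave 6 higher and 1 lower, limma on log2(TPM + 0.1) or log2(TPM + 1) gave 7 and 1, and limma without a filter 6 and 1. A tested fold of 1.5 (glmTreat) left 1 called, 0 higher and 1 lower, 1 at an unadjusted p under 0.05. Against Tg-GRK2, size scaling gave 6 higher and 2 lower, each limma fit 7 and 2, and glmTreat 1 called, 0 higher and 1 lower. For Tg-GRK2 against FVB/N, each limma fit gave 4 called, 3 higher and 1 lower, the most abundant transcript (by TPM) 3 higher, and glmTreat 0 called, 0 higher and 0 lower, with 0 at an unadjusted p under 0.05. With each library left out, 5 to 7 were called there, 4 to 5 higher and 1 to 2 lower, the fewest without Tg-GRK2 replicate 2. Among these alternatives the share of all genes called was counted for size scaling only. The other counts cannot be set against the whole transcriptome.

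Reversed log2 fold changes for Tg-RKIP against FVB/N were, with size scaling only, 0.17 for Gata4, 0.050 for Gata6, 0.36 for Tbx20, 0.30 for Hand2, 0.0053 for Mef2c, 0.039 for Mef2d and 0.29 for Srf. With limma on log2(TPM + 0.1), with and without a filter, they were 0.30 for Gata4, 0.094 for Gata6, 0.40 for Tbx20, 0.35 for Hand2, 0.014 for Mef2d and 0.30 for Srf, and on log2(TPM + 1) 0.29, 0.091, 0.39, 0.34, 0.013 and 0.30. The most abundant Gata4 transcript, which is the short one, gave 0.56, and Tbx20 was 0.00943 with at least 10 reads in all 9 libraries and -0.033 to 0.0038 with libraries left out. For Tg-RKIP against Tg-GRK2, size scaling gave 0.037 for Gata4, 0.094 for Gata6, 0.026 for Mef2d and 0.15 for Srf. The limma fits gave 0.21 for Gata4, 0.10 (0.099 on log2(TPM + 1)) for Gata6, and 0.22 (0.21 on log2(TPM + 1)) for Srf, and the short Gata4 transcript 1.36. Tbx20, near 0 there, was -0.00163 with DESeq2 size factors, -0.00311 without a filter, -0.00344 with only these groups, -0.00461 with DESeq2, -0.045 for its most abundant transcript and -0.015 to 0.022 with libraries left out. For Tg-GRK2 against FVB/N, the short Gata4 transcript gave -0.802, Tbx20 was 0.032 (0.031 on log2(TPM + 1)) with limma, and Mef2d was -0.027 for its most abundant transcript and -0.0058 to 0.0098 with libraries left out.

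In TPM rescaled without mitochondrial genes, 2 members were higher and 4 lower without overlap in Tg-RKIP against FVB/N, 3 and 2 in Tg-GRK2 against FVB/N, and 3 and 6 in Tg-RKIP against Tg-GRK2. The most abundant transcript gave 3 higher and 3 lower in Tg-GRK2 against FVB/N and 1 lower in Tg-RKIP against Tg-GRK2. The share of all genes apart was not counted in these settings, so these counts cannot be set against the whole transcriptome. With each library left out, 1 to 2 were lower in Tg-RKIP and in Tg-GRK2 against FVB/N, with 2 in Tg-RKIP without FVB/N replicate 1 and 2 in Tg-GRK2 without Tg-GRK2 replicate 1, Tg-GRK2 replicate 2 or FVB/N replicate 3. The counts of family shares without overlap held in these settings within 1.5 times. The exact permutation test of transcript shares cannot go below 0.1 and so gives no call. With at least 10 reads in all 9 libraries, 1 member was called for usage in Tg-RKIP against FVB/N. The replicate block, for numbers that do not pair the libraries, left 0 usage calls in Tg-GRK2 against FVB/N (Gata4 adjusted p = 0.0916, edgeR), and leaving out a library 0 to 1, with 0 without Tg-GRK2 replicate 1 or FVB/N replicate 1. The block moved no other count by over 1.5 times, and the cause of these shifts was not tested.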
